A study of Mus musculus with 32 samples.

Results

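Heat shock chaperones of the cytosol and of the mitochondria were examined in the kidney of mice that lack the basement membrane collagen chain Col4a3. The set held 8 genes of the 22180 genes measured. They were taken by name, and were chosen with earlier results of these data known. The 5 cytosolic members were Hspb1, Hspb8, Hsph1, Hspa4 and Dnajb1, and the 3 mitochondrial members were Hspd1, Hspe1 and Hspa9. All 8 were measured. Where several array features named a gene, the feature with the highest mean over all arrays stood for it, and features that named more than 1 gene were not used.

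The study measured RNA from kidney tissue of 32 male mice of strain 129, 1 Affymetrix Mouse Gene 2.0 ST array per mouse. The KO mice carried the genotype Col4a3-/- and the WT mice were littermates with the genotype Col4a3+/+. Each genotype was taken at 4 weeks and at 7 weeks of age, with 8 mice in each of the 4 groups. The labels name no treatment and do not say which part of Col4a3 was deleted or how the KO line was made. Mutation of COL4A3 in humans causes Alport syndrome, a progressive disease of the glomerular basement membrane, and Col4a3-null mice serve as its model.

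Chaperones bind unfolded proteins, keep them from aggregating and help them to fold. Small heat shock proteins such as HSPB1 and HSPB8 hold unfolded clients without using ATP, the HSP70 family with its HSP40 and HSP110 partners refolds them in cycles of ATP hydrolysis, and in the mitochondrial matrix the HSP70 protein mortalin and the HSP60 and HSP10 chaperonin do the same for imported proteins. Many of these genes are switched on by heat shock factor 1, which binds inverted repeats of the 5-base unit NGAAN in their promoters. The kidney's proximal tubule is rich in mitochondria, so whole kidney RNA carries much mitochondrial message.

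The promoter letters are shown because Hspd1 and Hspe1, the HSP60 and HSP10 genes, are transcribed in opposite directions from neighbouring starts and have the same stretch upstream of an annotated start, while other members have shorter matches or none. The sequences came from RefSeq promoter windows of build GRCm38.p6, each reaching from 250 bases before to 50 bases after an annotated start, and capitals mark matches to GAANNTTC or TTCNNGAA, which hold 2 units, and to their longer runs. Runs of 3 units were GAANNTTCNNGAA and TTCNNGAANNTTC, and runs of 4 added another NN and unit. The search covered both strands, and every longer match contains shorter ones.
Hspe1: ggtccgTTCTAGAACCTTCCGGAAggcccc
Hspd1: ggggccTTCCGGAAGGTTCTAGAAcggacc
Hsph1, longer match: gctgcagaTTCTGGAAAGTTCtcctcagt
Hsph1, shorter match: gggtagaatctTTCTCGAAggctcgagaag
Hspb1, outer match: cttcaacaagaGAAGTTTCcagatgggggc
Hspb1, inner match: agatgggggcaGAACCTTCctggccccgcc
Hspb8: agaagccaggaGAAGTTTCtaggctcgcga
The first and second lines are the 2 strands of chr1:55088053-55088082, read on the plus strand for Hspe1 and on the minus strand for Hspd1. That match held 4 units and lay at positions -89 to -72 from the Hspe1 start, and at -144 to -127 from the inner of the 2 annotated Hspd1 starts. The window of the outer Hspd1 start did not hold it, since that start lies beyond the Hspe1 start and the annotated genes overlap from there. Of 32851 promoter windows of 300 bases, 8 held a run of 4 units (0.0244%), 198 held at least 3 (0.603%) and 4946 held at least 2 (15.1%). In Hsph1, the HSP110 gene, a run of 3 units lay at chr5:149636280-149636308 on the minus strand, 16 to 28 bases after the inner of its 2 starts, and a match of 2 units lay at chr5:149636351-149636380. Hspb1 had 2 matches of 2 units on the plus strand, at chr5:135887791-135887820 and chr5:135887811-135887840, and Hspb8 had 1 on the minus strand at chr5:116422844-116422873, just inside its transcript. The windows of Hspa4 and Dnajb1 held no match to these letters. Hspa9 was not in the promoter table. These matches describe letters only and say nothing of binding, and no promoter was assayed here.

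Values were gene-level log2 signals as the authors deposited them, so a difference of 1 is a doubling, and levels of different genes were not set against each other. Differences were tested with limma over all 22180 genes, with p adjusted by the Benjamini-Hochberg method, and a gene passed at an adjusted p below 0.05. Beside it an exact two-sided permutation test over all 12870 splits of the 8 and 8 mice was run for each member, with 0.000155 as the smallest p it can give. The number of arrays limits the precision. Col4a3 itself marked the labels: the KO mice lay below every WT mouse at both ages, with means of 7.91 ± 0.25 against 8.90 ± 0.29 at 4 weeks and of 7.27 ± 0.34 against 8.92 ± 0.10 at 7 weeks (SD, n = 8 each). The 8 arrays of a group correlated with each other at 0.965 to 0.995 over all genes. The deposited values were not centred alike: the median of the arrays was 0.114 higher in KO than in WT at 7 weeks, and the share of higher genes among those that passed was 48.4% as deposited, 23.6% with every array centred on its median and 43% after quantile normalization. Between genotypes at 7 weeks 8324 of the 22180 genes were lower and 2568 higher with arrays centred. After quantile normalization 4232 were lower and 3188 higher. In whole tissue, fewer cells of a type and less RNA per cell cannot be told apart.

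At 7 weeks the small heat shock genes rose in KO kidney, Hspb1 to 3.81-fold and Hspb8 to 2.23-fold of WT. The HSP110 gene Hsph1 and the mitochondrial chaperones Hspd1 and Hspa9 fell, by 0.40, 0.45 and 0.30 on the log2 scale. Hspa4, Dnajb1 and Hspe1 did not pass. At 4 weeks none of the 8 members passed. At 7 weeks 5 of the 8 members passed, 2 higher and 3 lower, where 32.3% of all genes passed (15.6% higher and 16.7% lower). As the members were chosen with earlier results known, the share over all genes is given for scale and not as a test. The direction did not follow the compartment throughout: of the 5 cytosolic members 2 rose and 1 fell, and of the 3 mitochondrial members 2 fell.

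**Figure D1:**
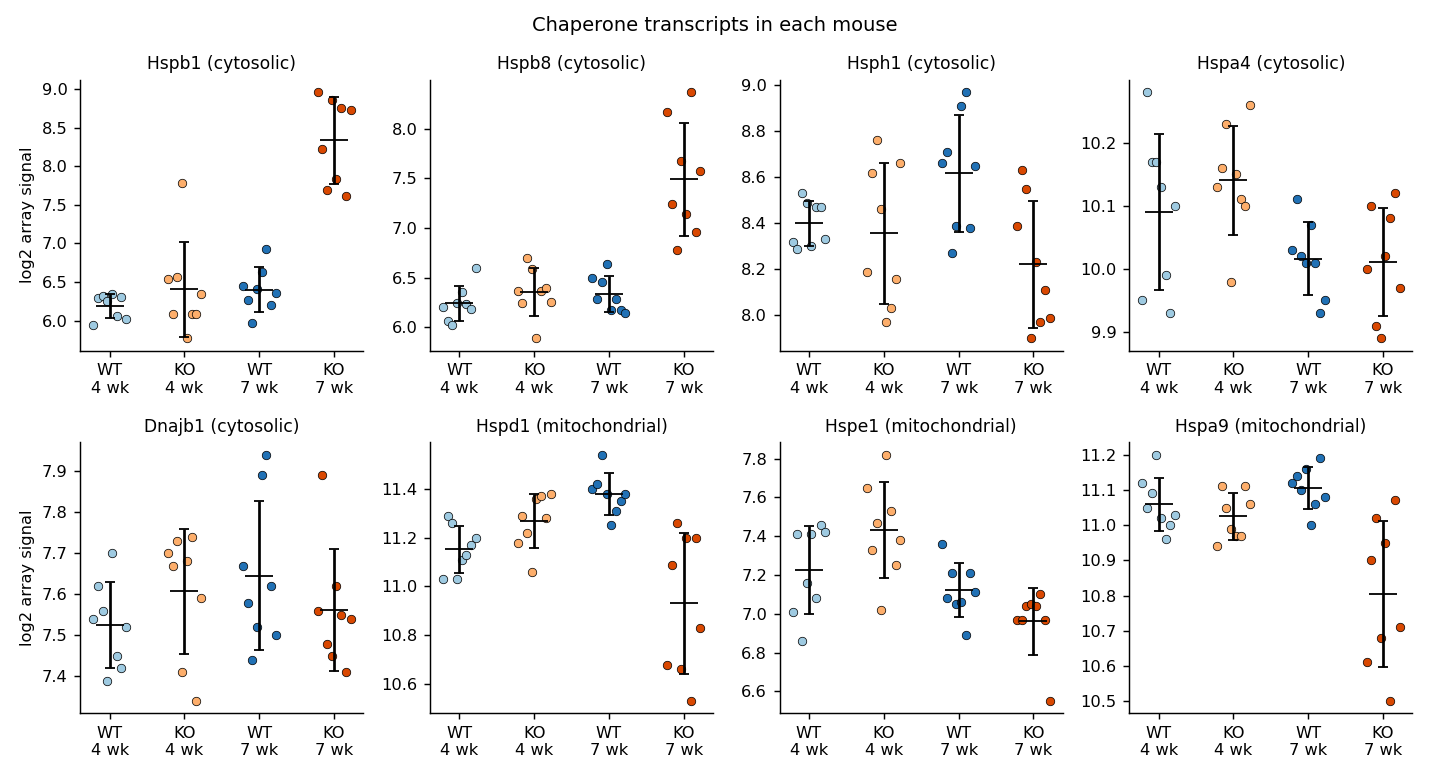
Log2 signal of each chaperone gene in each of the 32 mice, by genotype and age, with 1 point per mouse and bars for the mean and SD of 8 mice. At 7 weeks every KO mouse lies above every WT mouse in Hspb1 (7.62 to 8.96 against 5.97 to 6.93) and Hspb8, as in 7.62% of all genes. Hspd1 and Hspa9 reach lower in the 7-week KO mice than in any other group.

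Hspb1 encodes HSP27, a small heat shock protein that also binds actin filaments. In the 4-week WT mice its signal ranged from 5.94 to 6.35 with a median of 6.27, and in the 4-week KO mice from 5.77 to 7.78 with a median of 6.22. In the 7-week WT mice it ranged from 5.97 to 6.93 with a median of 6.39, and in the 7-week KO mice from 7.62 to 8.96 with a median of 8.47. The 3 other groups overlapped, and all 8 of the 7-week KO mice lay above every 7-week WT mouse. Such a separation with KO higher was found for 7.62% of all genes. The difference at 7 weeks was 1.93 ± 0.21 (SE; 95% interval 1.51 to 2.36, limma adjusted p = 6.7e-09, exact permutation p = 0.000155). At 4 weeks it was 0.22 ± 0.21 (limma adjusted p = 0.791), and 1 KO mouse, number 4 at 7.78, lay far above the 5.77 to 6.57 of the other KO mice. Without that mouse the 4-week difference was 0.02 (limma adjusted p = 0.974).

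A further feature for Hspb1, which the rule left out because its mean was lower, gave a smaller difference. Its signal was 5.81 ± 0.14 in KO against 5.43 ± 0.17 in WT at 7 weeks (SD, n = 8 each), a difference of 0.38 (exact permutation p = 0.000466). At 4 weeks its difference was 0.13 (exact permutation p = 0.36). Both features moved in the same direction, and the size of the Hspb1 change depended on the feature: with the mean of both features the 7-week difference was 1.15 (limma adjusted p = 1.18e-07). Whether the features of Hspb1, Hspd1 and Hspe1 also pick up copies or pseudogenes of these genes was not checked, as probe sequences were not used here.

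Hspb8 encodes HSP22, which works with the cochaperone BAG3 in the disposal of misfolded proteins by autophagy. Its signal ranged from 6.02 to 6.60 with a median of 6.23 in the 4-week WT mice and from 5.89 to 6.70 with a median of 6.37 in the 4-week KO mice. At 7 weeks it ranged from 6.15 to 6.64 with a median of 6.29 in WT and from 6.78 to 8.37 with a median of 7.41 in KO. Every 7-week KO mouse lay above every other mouse of the study, and the genotypes overlapped at 4 weeks. At 7 weeks 7.62% of all genes had every KO mouse above every WT mouse. How many lay above all other mice of the study was not counted. The KO difference was 1.16 ± 0.16 at 7 weeks (SE; limma adjusted p = 5.2e-07, exact permutation p = 0.000155) and 0.11 ± 0.16 at 4 weeks (limma adjusted p = 0.869). Bag3 itself, named here after its value was seen, differed by 0.07 ± 0.12 at 7 weeks (limma adjusted p = 0.682).

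Hsph1 encodes HSP105, an HSP110 protein that exchanges nucleotide on HSP70. Its signal ranged from 8.29 to 8.53 with a median of 8.40 in the 4-week WT mice and from 7.97 to 8.76 with a median of 8.32 in the 4-week KO mice. At 7 weeks it ranged from 8.27 to 8.97 with a median of 8.65 in WT and from 7.90 to 8.63 with a median of 8.17 in KO. The 7-week genotypes overlapped, but 5 KO mice lay below every WT mouse and all 8 lay below the WT median. The difference was -0.40 ± 0.12 at 7 weeks (SE; limma adjusted p = 0.00989, exact permutation p = 0.0117), a fall of 1.32-fold. At 4 weeks it was -0.05 ± 0.12 (limma adjusted p = 0.938), and the 4-week KO mice were more spread (SD 0.31) than the WT mice (SD 0.10).

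Hspa4 encodes another HSP110-type nucleotide exchange factor. Its group means were 10.09 ± 0.12 and 10.14 ± 0.09 in WT and KO at 4 weeks and 10.02 ± 0.06 and 10.01 ± 0.09 at 7 weeks (SD, n = 8 each). Its 7-week values ranged from 9.93 to 10.11 in WT and from 9.89 to 10.12 in KO, an almost complete overlap. The 7-week difference was -0.01 with a 95% interval of -0.12 to 0.11 (limma adjusted p = 0.955), and its sign turned to 0.04 after quantile normalization. Changes of the size seen in Hsph1 lie outside that interval.

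Dnajb1 encodes HSP40, the cochaperone that brings clients to HSP70. Its group means were 7.52 ± 0.10 and 7.61 ± 0.15 in WT and KO at 4 weeks and 7.65 ± 0.18 and 7.56 ± 0.15 at 7 weeks (SD, n = 8 each). At 7 weeks the WT mice ranged from 7.44 to 7.94 and the KO mice from 7.41 to 7.89, and KO mouse 2 alone held the upper end. The difference at 7 weeks was -0.08 with a 95% interval of -0.24 to 0.08 (limma adjusted p = 0.452). With arrays centred on their medians it was -0.20 and passed (limma adjusted p = 0.0417).

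**Figure D2:**
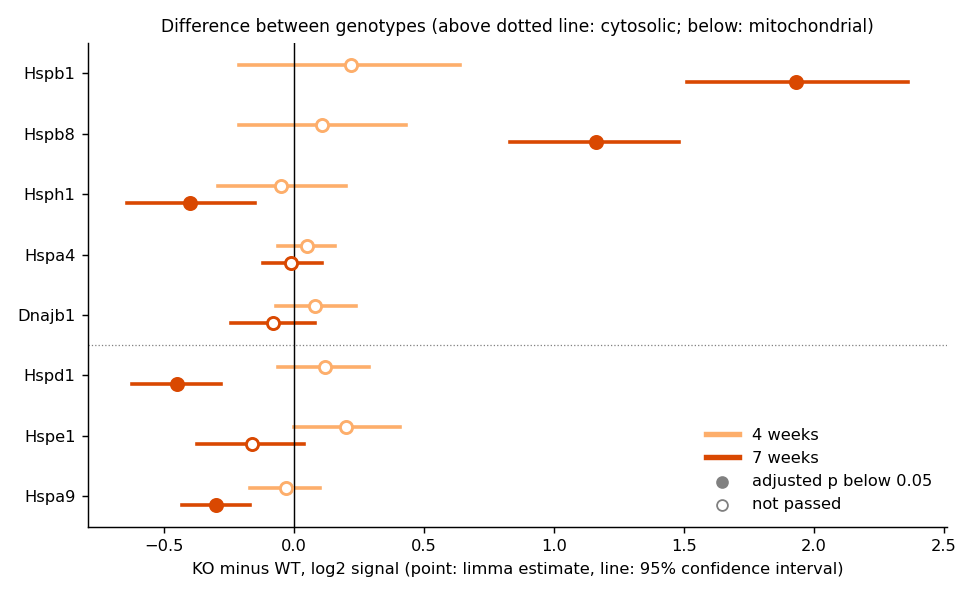
Difference in log2 signal between KO and WT for each of the 8 chaperone genes at 4 weeks and at 7 weeks, with 95% intervals from limma and 8 mice per group. At 7 weeks Hspb1 (1.93) and Hspb8 (1.16) lie above 0, Hsph1 (-0.40), Hspd1 (-0.45) and Hspa9 (-0.30) lie below it, and Hspa4, Dnajb1 and Hspe1 have intervals that reach across it.

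Hspd1 encodes HSP60, the barrel-shaped chaperonin of the mitochondrial matrix. Its signal ranged from 11.03 to 11.29 with a median of 11.15 in the 4-week WT mice and from 11.06 to 11.38 with a median of 11.29 in the 4-week KO mice. At 7 weeks it ranged from 11.25 to 11.54 with a median of 11.38 in WT and from 10.53 to 11.26 with a median of 10.96 in KO. At 7 weeks 7 of the 8 KO mice lay below every WT mouse, and the remaining mouse, number 3 at 11.26, just overlapped; 5.42% of all genes had every KO mouse below every WT mouse. The 7-week difference was -0.45 ± 0.08 (SE; limma adjusted p = 7.59e-05, exact permutation p = 0.000311), a fall of 1.37-fold. At 4 weeks the difference was 0.12 ± 0.08 and did not pass (limma adjusted p = 0.712), though the exact permutation p for this gene alone, unadjusted, was 0.0457.

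Hspe1 encodes HSP10, the lid of the HSP60 barrel, and is transcribed away from Hspd1 across the shared stretch printed above. Its signal ranged from 6.86 to 7.46 with a median of 7.29 in the 4-week WT mice and from 7.02 to 7.82 with a median of 7.43 in the 4-week KO mice. At 7 weeks it ranged from 6.89 to 7.36 with a median of 7.10 in WT and from 6.55 to 7.10 with a median of 7.01 in KO. The 7-week groups overlapped, with KO mouse 8 at 6.55 below all others. The 7-week difference was -0.16 with a 95% interval of -0.37 to 0.04 and did not pass (limma adjusted p = 0.223), while the exact permutation p was 0.0418 unadjusted. It passed with arrays centred on their medians, at -0.28 (limma adjusted p = 0.0256), and with array weights, at -0.20 (limma adjusted p = 0.0494). At 4 weeks the difference was 0.20 ± 0.10 (limma adjusted p = 0.537), the only one of the 8 with an unadjusted limma p under 0.05 at that age (0.048).

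Hspa9 encodes mortalin, the mitochondrial HSP70 that pulls imported proteins through the inner membrane. Its signal ranged from 10.96 to 11.20 with a median of 11.04 in the 4-week WT mice and from 10.94 to 11.11 with a median of 11.02 in the 4-week KO mice. At 7 weeks it ranged from 11.00 to 11.19 with a median of 11.11 in WT and from 10.50 to 11.07 with a median of 10.80 in KO. At 7 weeks 6 of the 8 KO mice lay below every WT mouse. The difference was -0.30 ± 0.07 at 7 weeks (SE; limma adjusted p = 0.00043, exact permutation p = 0.000932), a fall of 1.23-fold, and -0.03 ± 0.07 at 4 weeks (limma adjusted p = 0.916).

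None of the 8 genes passed at 4 weeks, where 9 of the 22180 genes passed at all (0.0406%, with 0.0316% higher and 0.00902% lower). None separated the genotypes at that age, as 0.0271% of all genes did with KO higher and 0.0225% with KO lower. The differences at that age ran from -0.05 for Hsph1 to 0.22 for Hspb1 (0.02 without KO mouse 4), and the medians were 0.08 over the cytosolic and 0.12 over the mitochondrial members, against -0.01 over all genes. At 7 weeks the median was -0.01 over the cytosolic members and -0.30 over the mitochondrial members, against -0.06 over all genes. The exact permutation test adds no further 4-week call than that of Hspd1 given above.

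The change of the genotype effect between the ages was tested itself, as the 7-week difference less the 4-week difference. It passed for 4 of the 8 members, where 17.0% of all genes passed (9.80% higher and 7.24% lower). The effect at 7 weeks was higher than at 4 weeks by 1.71 ± 0.30 for Hspb1 (limma adjusted p = 9.77e-05; 0.98 with the mean of both features, adjusted p = 0.000908) and by 1.05 ± 0.22 for Hspb8 (limma adjusted p = 0.00108). For Hspd1 the change was -0.56 ± 0.12 (limma adjusted p = 0.00104). For Hspa9 it was -0.27 ± 0.09 (limma adjusted p = 0.0408), and this call did not hold in 18 of the 32 fits that left out 1 mouse, where the adjusted p reached 0.0768, nor after quantile normalization (-0.17, adjusted p = 0.177). These 18 mice were WT mice 2, 5, 6, 7 and 8 and KO mice 2, 3, 7 and 8 at 4 weeks, and WT mice 1, 2, 3, 4 and 7 and KO mice 1, 4, 6 and 8 at 7 weeks. For Hspe1 the change of -0.37 ± 0.14 did not pass (limma adjusted p = 0.07), but it did without 7-week WT mouse 6 (-0.40, adjusted p = 0.0492) or 4-week KO mouse 4 (-0.43, adjusted p = 0.022), with arrays centred (-0.47, adjusted p = 0.0191), after quantile normalization (-0.48, adjusted p = 0.023) and with array weights (-0.40, adjusted p = 0.023). The changes for Hsph1 (-0.35 ± 0.17, limma adjusted p = 0.165), Dnajb1 (-0.17 ± 0.11, adjusted p = 0.339) and Hspa4 (-0.05 ± 0.08, adjusted p = 0.698) did not pass.

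Age was then compared within each genotype. In WT 1 of the 8 passed between 4 and 7 weeks, where 29.5% of all genes passed (15.4% higher and 14.1% lower). Hspd1, the HSP60 gene, was higher at 7 weeks by 0.23 ± 0.08 (limma adjusted p = 0.0393, exact permutation p = 0.000466, unadjusted), with 7 of 8 older mice above every younger one. The limma call was lost after quantile normalization (0.16, limma adjusted p = 0.13) and in 10 of the 32 fits that left out 1 mouse. These were 4-week WT mice 1, 4, 5, 6 and 7 and 7-week WT mice 1, 2, 3, 4 and 8, with differences of 0.21 to 0.23 and limma adjusted p up to 0.0799. The other WT age differences ran from -0.10 for Hspe1 to 0.22 for Hsph1 (limma adjusted p = 0.188, exact permutation p = 0.0404, unadjusted).

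In KO 5 of the 8 passed between 4 and 7 weeks, where 42.6% of all genes passed (21.4% higher and 21.3% lower). Hspb1 rose by 1.92 ± 0.21 (limma adjusted p = 8.13e-09) and Hspb8 by 1.14 ± 0.16 (adjusted p = 5.72e-07). All 3 mitochondrial members fell: Hspe1, which did not pass between genotypes, by 0.47 (adjusted p = 0.000232), Hspd1 by 0.34 (adjusted p = 0.0016) and Hspa9 by 0.22 (adjusted p = 0.00605). For Hspb1 the rise was 1.12 with the mean of both features (adjusted p = 1.81e-07). The Hspa4 difference of -0.13 ± 0.05 lay near the threshold and did not pass (adjusted p = 0.0585; exact permutation p = 0.0109, unadjusted). It passed with arrays centred on their medians (-0.20, adjusted p = 0.00432), with array weights (-0.15, adjusted p = 0.0196), with genes of a mean under 5 left out (-0.13, adjusted p = 0.0405) and with trended and robust variances (-0.13, adjusted p = 0.0473). It also passed in 4 of the 32 fits that left out 1 mouse, those without 4-week WT mouse 2 (-0.13, adjusted p = 0.0479), 4-week KO mouse 4 (-0.15, adjusted p = 0.0234), 7-week KO mouse 2 (-0.14, adjusted p = 0.0468) or 7-week KO mouse 7 (-0.14, adjusted p = 0.0418). Hsph1 (-0.13 ± 0.12) and Dnajb1 (-0.04 ± 0.08) did not pass. This comparison and that between genotypes at 7 weeks share the 7-week KO mice, so their values are given side by side and not as support for each other.

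The contrast of the compartments was put in 1 number per mouse, the mean of the 5 cytosolic members less that of the 3 mitochondrial members, each member first set to 0 at the mean of the WT mice of its age. It is a description and carries no test, as the members were chosen with earlier results known. No such number was made for other sets of genes. At 7 weeks this number was 0.83 ± 0.37 in KO (SD, n = 8), ranging from 0.36 to 1.27 against -0.25 to 0.34 in WT, with all 8 KO mice above every WT mouse. At 4 weeks it was -0.01 ± 0.27 in KO, ranging from -0.44 to 0.47. With the mean of all features of a gene it was 0.67 at 7 weeks. The 7-week contrast came from 0.52 in the cytosolic mean and -0.30 in the mitochondrial mean. With Hspb1 and Hspb8 left out, a choice made after seeing the data, it shrank to 0.14 ± 0.17, ranging from -0.09 to 0.34 against -0.27 to 0.33 in WT, and the mean of Hsph1, Hspa4 and Dnajb1 stood at -0.16. Most of the contrast thus rested on the small heat shock genes.

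**Figure D3:**
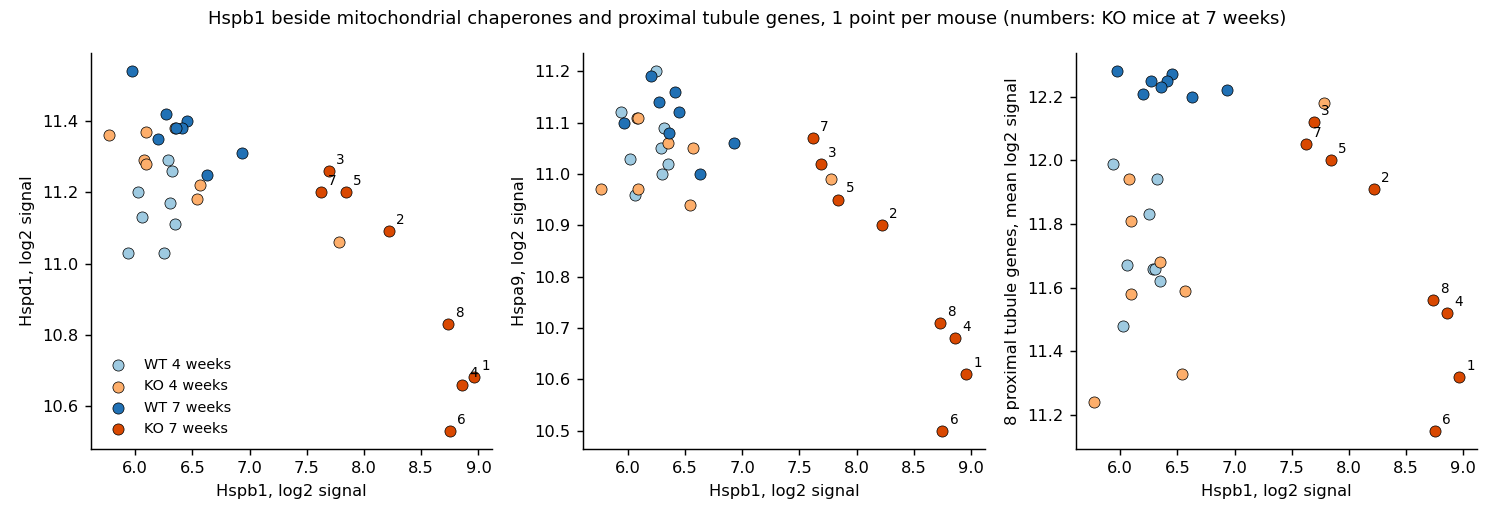
Log2 signal of Hspb1 on the horizontal axes against that of Hspd1, of Hspa9 and of the mean of 8 proximal tubule markers on the vertical axes, with 1 point per mouse, a colour for each of the 4 groups and the numbers of the 7-week KO mice. In the 7-week KO mice, Hspb1 is highest in mice 1, 4, 6 and 8 (8.73 to 8.96), in which Hspd1 lies at 10.53 to 10.83, and lower in mice 2, 3, 5 and 7 (7.62 to 8.22), in which Hspd1 lies at 11.09 to 11.26.

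The 7-week KO mice differed among themselves. Hspb1 stood at 8.96, 8.86, 8.75 and 8.73 in mice 1, 4, 6 and 8, and at 8.22, 7.69, 7.84 and 7.62 in mice 2, 3, 5 and 7. Hspd1 ran the other way, with 10.68, 10.66, 10.53 and 10.83 in the former and 11.09, 11.26, 11.20 and 11.20 in the latter. Hspa9 stood at 10.61, 10.68, 10.50 and 10.71 against 10.90, 11.02, 10.95 and 11.07. The third mitochondrial member, Hspe1, did not part this way, with 6.97, 7.05, 7.10 and 6.55 against 6.97, 7.04, 7.04 and 6.97. Hsph1 also mixed, with 8.39, 7.90, 7.97 and 7.99 against 8.63, 8.55, 8.23 and 8.11. The labels do not say what the mouse numbers stand for. The same split into mice 1, 4, 6 and 8 and mice 2, 3, 5 and 7 was the widest gap on the leading principal component of all genes, at 0.515 of its range. No correlation is given over these 8 mice because they parted into 4 and 4. In the 4-week groups the widest gap was nearly as large, 0.498 of the range in WT and 0.484 in KO, but it set 1 mouse apart from 7, WT mouse 8 and KO mouse 4.

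Markers of cell types moved along with these genes. The mean log2 signal of 8 proximal tubule markers was 12.20 to 12.28 in the 7-week WT mice, and in the 7-week KO mice it was 11.32, 11.52, 11.15 and 11.56 in mice 1, 4, 6 and 8 and 11.91, 12.12, 12.00 and 12.05 in mice 2, 3, 5 and 7. All 8 of these markers were lower in KO than in WT at 7 weeks, where 16.7% of all genes were lower. So were 5 of 8 of the distal tubule and collecting duct and 2 of 6 of the thick ascending limb, of which 1 was higher. With age, 7 of the 8 proximal tubule markers rose in WT (median 0.50), where 15.4% of all genes rose. In KO 1 rose and 1 fell with age (median 0.17), where 21.4% of all genes rose and 21.3% fell. The change of the genotype effect between ages passed, in the lower direction, for 3 of these 8, against 7.24% of all genes. Between genotypes at 7 weeks, as deposited, none of 5 podocyte markers passed, and 2 of 6 endothelial markers were lower in KO. With arrays centred on their medians 1 podocyte and 3 endothelial markers fell, and 6 of the distal tubule and collecting duct. After quantile normalization 1 podocyte and 3 endothelial markers fell, 1 endothelial marker rose, and 7 proximal tubule markers fell. The part of the lower tubular marker signals in the lower Hspd1 and Hspa9 signals was not tested.

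Markers that were higher in KO than in WT at 7 weeks stood beside the higher Hspb1 and Hspb8 signals. They were 6 of 6 markers of tubular injury, 7 of 7 of fibroblasts, 7 of 7 of macrophages and 6 of 7 of smooth muscle and pericytes. Also higher were 5 of 6 of T cells, 2 of 4 of B cells and 4 of 4 of cycling cells, where 15.6% of all genes were higher. With age, 3 of the 4 cycling cell markers fell in WT (median -1.19), where 14.1% of all genes fell, and 0 passed in KO (median 0.07). Of 5 neutrophil markers 1 was higher in KO at 7 weeks, near the 15.6% of all genes, Csf3r by 1.12 (limma adjusted p = 1.6e-09). S100a8, S100a9, Ly6g and Mpo had group means of at most 5.64, near or below the array medians of 5.61 to 5.79. Their values therefore say little about neutrophils. With arrays centred on their medians 3 T cell markers and 1 B cell marker rose, and after quantile normalization 4 and 1. The other counts of higher markers did not change. The injury mean was 8.82 to 9.92 in KO against 6.22 to 6.53 in WT, that of macrophages 8.08 to 9.45 against 6.55 to 6.78, that of fibroblasts 8.03 to 9.11 against 6.88 to 7.27 and that of smooth muscle and pericytes 8.55 to 9.15 against 7.74 to 8.13. Of 6 skeletal muscle markers none rose and 1 fell as deposited, 4 fell with arrays centred on their medians, and none passed after quantile normalization. The means over the skeletal muscle markers were 4.96 to 5.22 in KO and 5.07 to 5.28 in WT, below those array medians. The part of these cell types in the Hspb1 and Hspb8 differences was not tested. The 4-week KO mouse with the high Hspb1 signal of 7.78 also had the highest injury mean of its group, 8.22, and the highest proximal tubule mean, 12.18. It had the highest podocyte mean of its group too, 8.01, and the lowest thick ascending limb mean, 9.96. Its array had the lowest of all array weights, 0.337. What set this mouse apart was not tested. At 4 weeks 1 marker of all these lists passed, the injury marker Lcn2.

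The other chaperones were followed in lists of the pathway, chosen with earlier results of these data known. Among the other small heat shock genes 2 of 6 rose at 7 weeks and none fell as deposited, beside the 15.6% higher and 16.7% lower of all genes, while 2 rose and 2 fell with arrays centred on their medians and after quantile normalization. The list median of 0.09 turned to -0.03 with arrays centred. Cryab, which encodes alpha B crystallin, rose by 0.75 ± 0.13 (SE; 1.68-fold, limma adjusted p = 2.96e-05), and Hspb6 rose by 0.32 ± 0.09 (adjusted p = 0.00474). Hspb9 (-0.23, adjusted p = 0.0667) and Hspb7 (0.22, adjusted p = 0.0943) did not pass. For Cryab the change of the genotype effect between ages also passed (0.74 ± 0.19, adjusted p = 0.00508).

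Hsph1, Hspa4 and Dnajb1 work in the cytosolic HSP70 system. Of 22 other genes of that system 4 rose and 6 fell at 7 weeks, with a median of -0.03, and these shares lay near those of all genes (15.6% higher and 16.7% lower). The stress-inducible HSP70 gene Hspa1b rose by 0.84 ± 0.20 (SE; adjusted p = 0.0012), and its near-identical copy Hspa1a, named after its value was seen, by 0.49 ± 0.16 (adjusted p = 0.0201); probes may not tell these copies apart. Bag2, a nucleotide exchange factor, rose by 0.57 ± 0.08 (adjusted p = 1.67e-06), while the HSP40 gene Dnaja4 fell by 0.61 (adjusted p = 4.5e-05) and the HSP70 cofactor St13 by 0.17 (adjusted p = 0.0138). The counts were 2 higher and 10 lower with arrays centred on their medians, and 3 higher and 5 lower after quantile normalization. The constitutive HSP70 gene Hspa8, also named after its value was seen, stood at 0.00 ± 0.05.

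The HSP90 list had 3 of 10 lower and none higher, with a median of -0.14, beside 16.7% lower among all genes. It had 6 lower with arrays centred and 2 lower after quantile normalization. The cochaperones Fkbp4 (-0.23 ± 0.06, adjusted p = 0.00492), Ahsa1 (-0.17 ± 0.06, adjusted p = 0.0218) and Ptges3 (-0.26 ± 0.10, adjusted p = 0.0489) fell. Fkbp5 (-0.52 ± 0.23, adjusted p = 0.0816) and Hsp90aa1 (0.19 ± 0.10, adjusted p = 0.15) did not pass. In the cytosolic chaperonin and prefoldin list 1 of 13 rose and 1 fell, beside 15.6% higher and 16.7% lower among all genes. Cct5 rose by 0.19 ± 0.06 (adjusted p = 0.00921), Pfdn2 fell by 0.48 (adjusted p = 5.52e-05) and the other 11 of 13 did not pass. That list had 0 higher and 5 lower with arrays centred, and 3 higher and 2 lower after quantile normalization. Of the heat shock factor list, Hsf2, Hsf4 and Hsbp1 were measured and none passed as deposited, with differences of -0.13 to 0.08, but 2 fell with arrays centred, and 1 rose and 2 fell after quantile normalization. Hsf1 was not analysed here. In the endoplasmic reticulum list 2 of 11 rose, near the 15.6% higher among all genes, and 1 fell, beside 16.7% lower. Sdf2l1 (0.69 ± 0.22, adjusted p = 0.0155) and Hsp90b1 (0.25 ± 0.09, adjusted p = 0.028) rose, and Dnajc3 fell by 0.23 (adjusted p = 0.00876). That list had 1 higher and 2 lower with arrays centred, and 5 higher and 1 lower after quantile normalization. Hspa5, the main HSP70 of that compartment, differed by 0.28 ± 0.14 (adjusted p = 0.125).

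Hspd1, Hspe1 and Hspa9 work beside other mitochondrial chaperones and proteases. Of 21 other mitochondrial chaperones and proteases 17 fell at 7 weeks and 1 rose, with a median of -0.33 against -0.06 over all genes, of which 16.7% fell. The counts were 18 lower and 0 higher with arrays centred, and 17 lower and 1 higher after quantile normalization. Dnaja3, the HSP40 partner of mortalin, fell by 0.45 (limma adjusted p = 2.18e-07), and the mitochondrial HSP90 gene Trap1 fell by 0.38 (adjusted p = 2.17e-05). The disaggregase gene Clpb fell by 0.46 (adjusted p = 2.59e-05) and Pmpcb, which encodes a subunit of the protease that trims imported proteins, by 0.54 (adjusted p = 2.96e-05). The protease gene Htra2, named after its value was seen, rose by 0.25 ± 0.06 (adjusted p = 0.00133). Dnajc15 (-0.30 ± 0.13, adjusted p = 0.0832) did not pass.

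A list of 17 mitochondrial genes that are no chaperones, called enzymes and carriers here, also held the transcription factor gene Tfam and the channel gene Vdac1. Of these 17 genes 14 fell at 7 weeks and none rose, with a median of -0.30, beside 16.7% lower among all genes. All 17 fell with arrays centred, and 10 fell after quantile normalization. Ndufs1 of complex I fell by 0.62 (adjusted p = 1.31e-06) and Dlat of pyruvate dehydrogenase by 0.48 (adjusted p = 2.36e-05). The mean of this list was 11.00 to 11.05 in the 7-week WT mice. In the 7-week KO mice it was 10.60, 10.58, 10.46 and 10.59 in mice 1, 4, 6 and 8, and 10.88, 10.88, 10.83 and 10.80 in mice 2, 3, 5 and 7. The falls of Hspd1 and Hspa9 stood beside these lower signals, and whether the chaperones differed from the enzymes was not tested. The change of the genotype effect between ages passed, in the lower direction, for 14 of 21 mitochondrial chaperones and proteases and 9 of 17 enzymes and carriers, against 7.24% of all genes. At 4 weeks none of the genes in these 8 pathway lists passed.

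**Figure D4:**
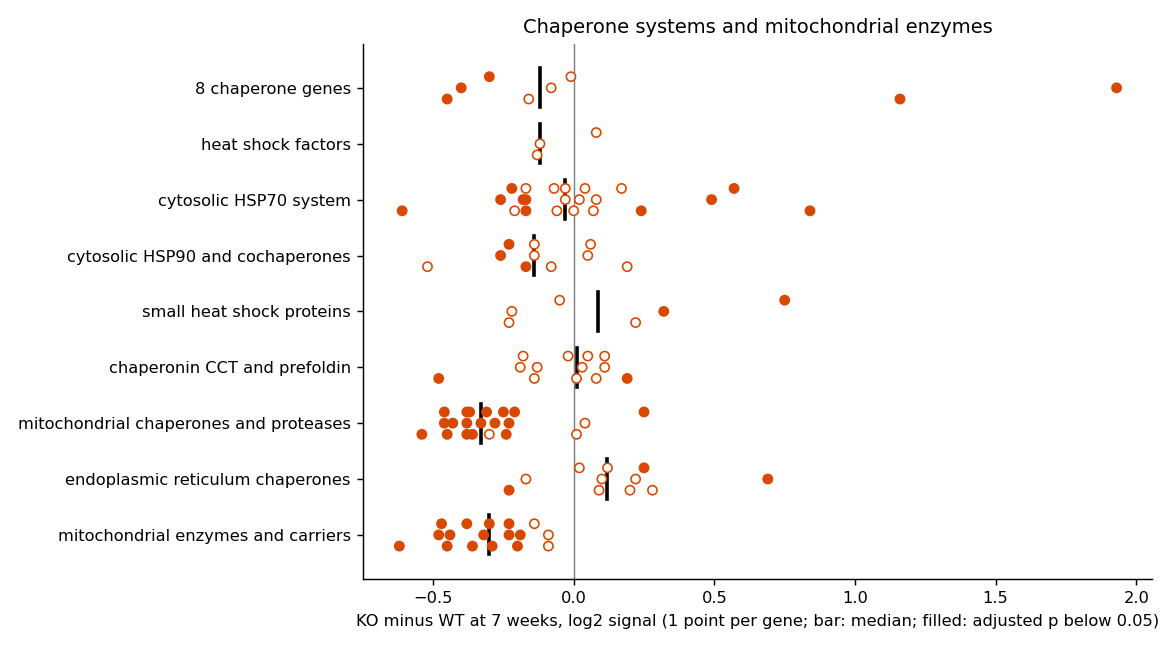
Difference in log2 signal between KO and WT at 7 weeks for each measured gene of the chaperone and mitochondrial lists, with 1 point per gene, filled where it passed, a line at each list's median and the 8 members in the top line. The mitochondrial chaperones and proteases (median -0.33) and the mitochondrial enzymes and carriers (median -0.30) lie mostly below 0, and the cytosolic HSP70 system lies on both sides of it (median -0.03).

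Within groups the members were also set against each other, over 28 pairs in each of the 3 groups other than the 7-week KO mice, by exact permutation over the 8 mice. No pair had an adjusted p under 0.05, and 0, 2 and 7 pairs had an unadjusted p under 0.05 in the 4-week WT, 4-week KO and 7-week WT mice. In the 7-week WT mice Hspb1 went with Dnajb1 (Pearson r = 0.87, exact permutation p = 0.00372, adjusted 0.0549; Spearman rho = 0.79; r = 0.69 without the 2 most distant mice). It also went with Hsph1 (r = 0.86, exact permutation p = 0.00392, adjusted 0.0549; rho = 0.83; r = 0.68 without those mice). The same pairs had r of 0.27 and 0.23 in the 4-week WT mice and of -0.40 and 0.37 in the 4-week KO mice. Hsph1 with Dnajb1 (r = 0.85, exact permutation p = 0.00856, adjusted 0.0625) and Dnajb1 with Hspd1 (r = -0.81, exact permutation p = 0.00893, adjusted 0.0625) were next in the 7-week WT mice. Hspd1 and Hspe1, which have the printed stretch in common, correlated at 0.19, 0.52 and 0.45 in these groups.

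The genes most like each member were found by the correlation of deviations from the group means over the 32 mice, as a description with no test. These points share the array and the spread of the 7-week KO mice. For Hspb1 they were Chrnb1 (r = 0.88), Pnrc1 (0.83) and Plp2 (0.83), and for Hspb8 they were Golm1 (0.88), Ms4a4a (0.82) and Muc1 (0.82). For Hspd1 they were Ankrd13c (0.90), 4931406C07Rik (0.90) and Eci3 (0.89), and for Hspa9 they were Gcdh (0.88), Bphl (0.88) and Galnt11 (0.87). The closest was Tada2b for Hsph1 (0.82), Ccng1 for Hspe1 (0.82), Pde12 for Dnajb1 (0.75) and Arcn1 for Hspa4 (0.68). The nearest genes of Hspb1 and Hspb8 all had KO signals above WT at 7 weeks, by 0.45 to 2.20 on the log2 scale, and those of Hspd1 and Hspa9 all had lower ones, with differences of -0.46 to -1.33. Those of Hsph1 differed by -0.11 to -0.54 and those of Hspa4 by -0.02 to -0.15. Those of Hspe1 (0.06, 0.00 and -0.13) and Dnajb1 (0.07, -1.25 and -0.15) went both ways. The genes were picked by likeness over these same mice, so a shared direction is no separate result.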

How the data were processed

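The values were gene-level log2 signals that the authors deposited, made with RMA in Affymetrix Expression Console per the submitters' processing notes, with versions not given in the sources used here. Raw scans were not used here, so scan batches were not analysed here. The 41345 features comprised 23521 with a single gene symbol, 1814 with several and 16010 without any, and the 1082 genes with several features were reduced to the feature with the highest mean, giving 22180 genes. No filter was applied.

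The members and gene lists were chosen with earlier results of these data known. limma 3.58.1 in R 4.3.3 fitted a mean for each of the 4 groups, with 28 residual degrees of freedom, and p was adjusted by Benjamini-Hochberg over all genes. The labels call the samples separate mice. Named genes were all 8 members, Col4a3, up to 4 genes per pathway list with the smallest p and up to 2 with the largest difference among those that did not pass, and up to 3 genes most like each member. The 5 red blood cell precursor markers named in the lists had 0 measured. On simulated data for KO against WT at 7 weeks over 22180 genes, the fit recovered 74% of shifts of 0.5 and 97% of shifts of 1. Alternatives were array centring, quantile normalization, a filter at a mean of 5, array weights, trended and robust variances, the compared groups alone, a rank-sum test, the mean of all features of a gene, a replicate block, each mouse left out and other forms of the compartment contrast. The other steps ran in Python 3.11.15 (pandas 2.3.3, numpy 2.4.6, scipy 1.17.1), and figures were drawn with matplotlib 3.10.9.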

Additional observations from a re-analysis of the deposited data

Results flagged for a closer look

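Among 36 groups of 8 mice examined, each a gene in a group, 3 held a mouse far from the others, where chance gives about 5%. The 4-week KO mouse 4 had an Hspb1 signal of 7.78 against 5.77 to 6.57 in the other KO mice of its age. The 7-week KO mouse 2 had a Dnajb1 signal of 7.89 against 7.41 to 7.62, and the 7-week KO mouse 8 had an Hspe1 signal of 6.55 against 6.97 to 7.10. The genotype effect differed between the ages by the limma test of that difference for 4 members: by 1.71 for Hspb1, 1.05 for Hspb8, -0.56 for Hspd1 and -0.27 for Hspa9. The Hspb1 feature not used for the gene was higher in KO than in WT at 7 weeks by 0.38 (exact permutation p = 0.000466), against 1.93 for the feature used. No explanation of these values was tested.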

How the results depend on the processing

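The 5 members that passed between genotypes at 7 weeks passed under every alternative limma fit across all genes and without each mouse in turn, and the number that passed at 4 weeks stayed at 0 in those fits. The number at 7 weeks was 7 with arrays centred, where Dnajb1 and Hspe1 also fell (2 higher and 5 lower), and 6 with array weights, where Hspe1 also fell. The number that passed between ages in WT fell from 1 to 0 after quantile normalization and ranged from 0 to 1 without each mouse in turn. The compartment contrast at 7 weeks was 0.83, 0.35 with medians of the members, 3.13 in units of the SD within groups, 0.14 with Hspb1 and Hspb8 left out and 0.76 to 0.89 without each mouse in turn. At 4 weeks it ran from -0.08 to 0.05 without each mouse in turn. Small differences that changed sign were Hsph1 at 4 weeks (-0.10 to 0.01 without each mouse in turn), Hspa4 at 7 weeks (0.04 after quantile normalization and -0.02 to 0.01 without each mouse in turn), the change of the Hspa4 effect between ages (0.00 after quantile normalization) and Hspa9 with age in WT (-0.01 after quantile normalization). The cause was not tested. The deviations of same-numbered mice from their group means correlated at -0.27 to 0.232. Differently numbered mice were not set beside them, so this cannot settle whether the numbers pair the mice. With the number as a replicate block, 0 members passed at 4 weeks, 5 at 7 weeks, 3 in the difference between ages (Hspa9 not among them, -0.27, limma adjusted p = 0.0714), 1 between ages in WT and 5 in KO. Over all genes, 9 passed at 4 weeks, 1 with the compared groups alone, 5 with array weights, 2 with the block and 0 by rank-sum, and at 7 weeks 7167 passed, or 10892 with arrays centred.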
